A study of Mus musculus with 8 samples.

Results

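Accessible chromatin was described at 9 genes of the brain extracellular matrix, chosen by name: the lecticans Acan, Bcan, Ncan and Vcan, the link proteins Hapln1, Hapln2 and Hapln4, and the tenascins Tnr and Tnc. They are 9 of 21883 protein-coding genes, and each was read over its gene body with 20 kb added on both sides, here called its window. In this assay, ATAC-seq, a transposase inserts adapters wherever DNA is open, so that insertions pile up into peaks over promoters, enhancers and other open stretches. Merging the 50000 strongest regions of every library gave 90690 consensus regions on genome build mm10, of which 82 lay in the 9 windows.

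There were 8 libraries in 4 groups of 2, all from mice on the C57Bl/6J background. KO mice lacked Fn14, the receptor for the cytokine TWEAK, and WT mice were their littermates; both gave coronal brain sections at postnatal day 27, which held the dLGN, hippocampus and cortex. PLX chow mice ate chow with a compound that the labels spell PLX5562, given to deplete microglia, from postnatal day 20, and control chow mice ate the matching chow without it; both gave microdissected dLGN at postnatal day 32. The dLGN, or dorsal lateral geniculate nucleus, relays signals of the eye to visual cortex. Each library started from 50000 nuclei. The knockout was not limited to a cell type by anything in the labels, and nuclei of all cell types were mixed. Nothing in the labels says whether the libraries of a group came from separate animals, so p-values measure the spread between these libraries, which may be technical.

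Perineuronal nets are dense coats of matrix around the cell body and dendrites of certain neurons, above all fast-spiking inhibitory neurons. Hyaluronan chains at the cell surface bind lecticans, link proteins lock that bond, and tenascin-R ties the far ends of the lecticans to each other. Nets form late in postnatal development, around the time when critical periods of sensory plasticity close, and microglia can remove matrix.

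The promoters below are shown because their start sites behaved differently in these libraries. The start of Hapln2 scored higher in dLGN and that of Tnc lower, that of Acan had only weak peaks, and that of Hapln1 had none. Each stretch runs 5′ to 3′ on the gene's strand, from 250 bases before to 50 bases after the start site, and comes from RefSeq on GRCm38.p6. Capitals mark a match to a searched motif: AACAAT in Hapln2, GGGGCGG and TATAAA in Tnc, and CCGCCCC, the reverse complement of GGGGCGG, in Acan. Hapln1 held none.
Hapln2, chr3:88027462-88027761, minus strand: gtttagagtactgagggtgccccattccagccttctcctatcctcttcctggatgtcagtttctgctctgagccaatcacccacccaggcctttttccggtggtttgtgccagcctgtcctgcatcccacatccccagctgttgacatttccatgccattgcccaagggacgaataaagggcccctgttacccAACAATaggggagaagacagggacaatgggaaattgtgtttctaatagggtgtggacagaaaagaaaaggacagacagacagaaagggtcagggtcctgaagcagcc
Tnc, chr4:64046966-64047265, minus strand: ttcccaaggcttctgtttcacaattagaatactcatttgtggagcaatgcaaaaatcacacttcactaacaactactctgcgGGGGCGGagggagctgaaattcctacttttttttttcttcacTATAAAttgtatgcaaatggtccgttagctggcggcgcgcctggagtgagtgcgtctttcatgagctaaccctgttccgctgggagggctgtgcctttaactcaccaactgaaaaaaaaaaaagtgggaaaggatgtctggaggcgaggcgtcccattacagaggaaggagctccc
Acan, chr7:79052976-79053275, plus strand: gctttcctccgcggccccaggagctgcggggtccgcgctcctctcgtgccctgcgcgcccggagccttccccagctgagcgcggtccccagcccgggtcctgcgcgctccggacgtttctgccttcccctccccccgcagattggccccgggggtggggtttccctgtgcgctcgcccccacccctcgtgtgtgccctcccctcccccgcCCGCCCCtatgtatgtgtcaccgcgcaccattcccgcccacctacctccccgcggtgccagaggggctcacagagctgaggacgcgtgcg
Hapln1, chr13:89540386-89540685, plus strand: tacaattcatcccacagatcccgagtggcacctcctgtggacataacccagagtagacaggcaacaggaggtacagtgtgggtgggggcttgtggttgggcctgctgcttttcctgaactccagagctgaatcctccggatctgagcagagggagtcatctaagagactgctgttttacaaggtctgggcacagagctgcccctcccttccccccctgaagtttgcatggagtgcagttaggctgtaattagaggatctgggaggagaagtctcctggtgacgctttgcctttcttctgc

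These promoters differed widely in base composition. The Acan promoter was 74% G and C with 31 CpG dinucleotides, against medians of 56.7% and 13 over 21005 promoters. The Hapln2 promoter held 52% G and C and 2 CpG, the Hapln1 promoter 54.3% and 3, and the Tnc promoter shown above 47.3% and 10. Promoters were matched for 8 of the 9 genes, with a pair of start sites for Tnc. On both strands, the GC box GGGGCGG was found in 5 of these genes (Acan, Bcan, Ncan, Vcan and Tnc) and in 31.2% of all promoters, and TATAAA in Ncan and Tnc and in 12.5% of all. The SOX-type motif AACAAT was found in Hapln2 alone among them and in 8.9% of all. The AP-1 motif TGANTCA, the CRE motif TGACGTCA, the E-box CACGTG and the palindromic NFI motif were in none of the members' promoters and in 6.99%, 2.25%, 7.9% and 0.0333% of all. These are matches of letters only.

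The deposited lists held 248989 (PLX chow 1) to 299822 (KO 1) peaks per library, and read depth is unknown. Strength is given as the authors' −log10 p of the strongest peak over a region, with 0 where no peak was listed. Lists differ in scale: selection reached down to 13.4 in WT 2 but only to 33.0 in control chow 1, so groups were compared by rank. The rank-normal score places a region among the 90690 regions of its own library, with 0 in the middle and higher values for stronger regions. The targeted gene checked the genotype labels: the Tnfrsf12a region chr17:23677365-23677642 had no peak in either KO library, against 13.6 and 8.02 in WT. The check of the diet by microglial markers was mixed. At the Csf1r region chr18:61108359-61109129 neither PLX chow library had a peak, against 13.1 and 13.8 in control chow, but the strongest Csf1r region in dLGN, chr18:61127369-61128171, was at 23.7 and 24.4 under PLX chow against 22.1 and 23.7 under control chow. At P2ry12, chr3:59234962-59235206 had no peak under PLX chow, against 16.4 and 16.6 under control chow. The weaker chr3:59228719-59229438 shared that pattern (9.58 and 5.78 under control chow). The strongest region read there in dLGN, chr3:59262627-59263066, was at 76.3 and 64.9 under PLX chow against 137 and 78.3. At chr3:59233040-59233507 the diets overlapped, with 21.9 and 35.2 against 39.8 and 20.8. The summed selected regions of 14 microglial genes were 14 and 15 under PLX chow against 18 and 15 under control chow, and none of their 37 consensus regions was called. Among thalamic markers, Foxp2 had 15, 13, 10 and 14 selected regions in dLGN libraries against 3, 5, 7 and 8 in section libraries, whereas Rora had 5, 9, 7 and 10 against 17, 11, 12 and 12. Of the 7 genes on that list 2 had more and 1 fewer in dLGN without overlap, where 6.54% and 8.9% of all genes did. Of its 69 consensus regions 31.9% were called higher in dLGN and 27.5% lower, against 29.3% and 31.1% of all regions. Library values are always listed as PLX chow 1, PLX chow 2, control chow 1 and control chow 2 for dLGN, and as KO 1, KO 2, WT 1 and WT 2 for sections.

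The 9 genes differed in how much of their window was open. Tnr, which spans 408 kb, held 14 to 21 selected regions per library among 43 consensus regions. Acan, whose window covers 102 kb, had exactly 1 selected region in every library, and Ncan, in a window of 67.8 kb, had 5 to 8. Bcan had 1 to 3 selected regions, Vcan and Hapln2 3 to 5, Hapln1 3 to 6, Hapln4 1 to 3 and Tnc 3 to 6. The windows of Bcan and Hapln2 share 2 consensus regions and those of Ncan and Hapln4 share 4, so these neighbours are not independent. A peak covered 8 of the 9 annotated start sites of the genes in all 8 libraries (88.9%), against 54.5% of 21262 protein-coding start sites. These sites include a pair for Tnc inside 1 consensus region and none for Hapln4, and the site without a peak was that of Hapln1. Likewise 58 of the 82 regions (70.7%) had a peak in all 8 libraries, against 64.4% of all consensus regions. Most consensus regions at these genes thus had a peak in both tissues, both genotypes and both diets.

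**Figure D1:**
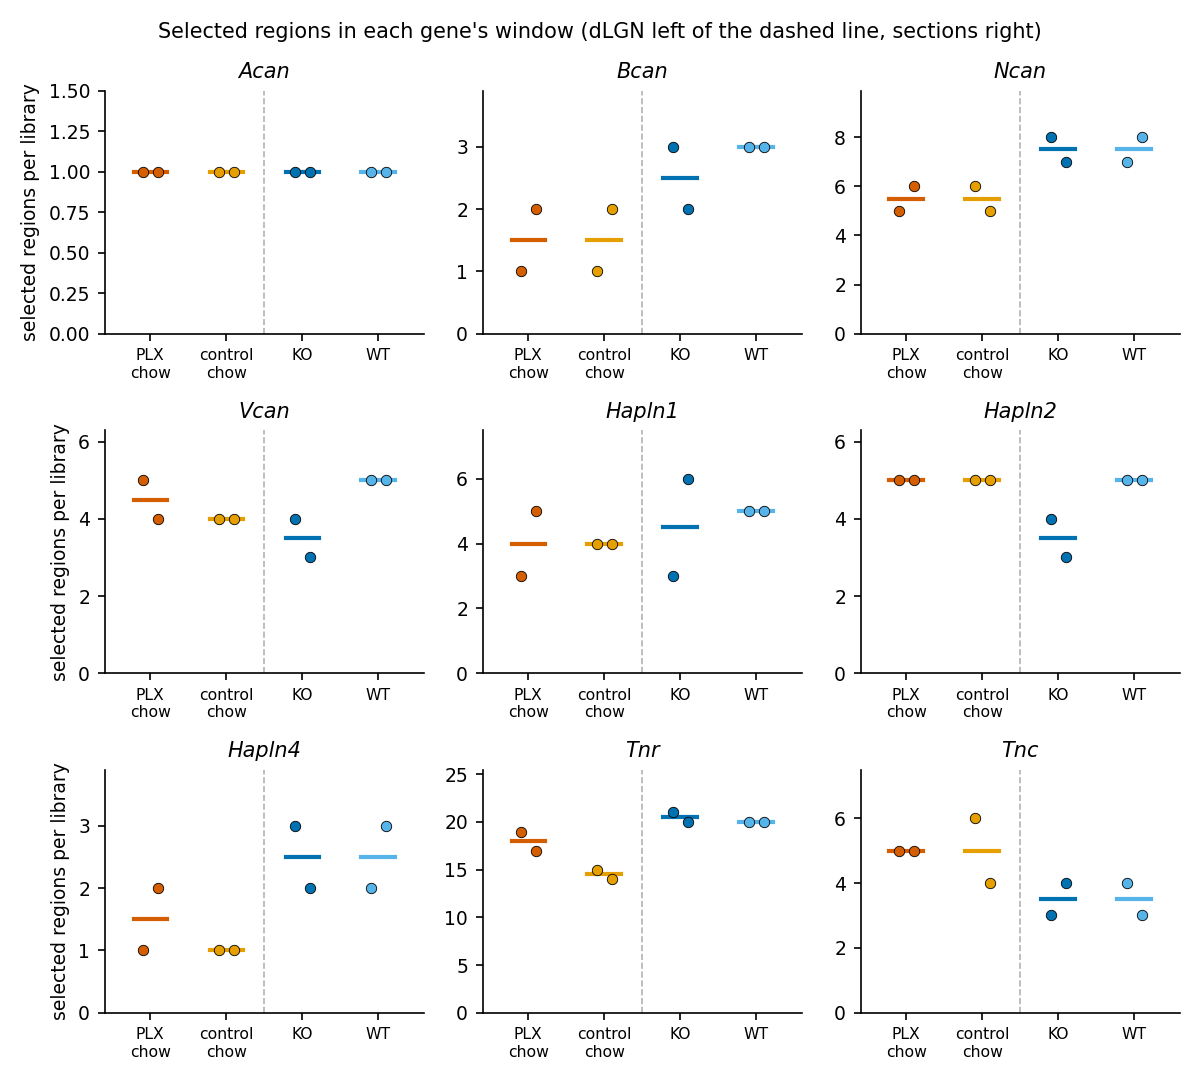
Selected regions per library (y axis) in the window of each gene, for 2 libraries per group (points) with their mean (bar). Tnr ranges from 14 to 21, Ncan is lower in all dLGN libraries (5 to 6) than in all section libraries (7 to 8), and Acan is at 1 throughout.

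The first comparison set dLGN against coronal sections. It differs in tissue, age and preparation at once, which cannot be told apart, and PLX chow libraries are among the dLGN ones as KO libraries are among the section ones. Of the 82 regions, 16 rose and 23 fell in dLGN (limma, Benjamini-Hochberg adjusted p under 0.05 over all consensus regions), together 47.6%. Over all regions 29.3% rose and 31.1% fell, together 60.4%, so the share among the 9 genes was below the background. The median difference in score was -0.13 over the 82 regions and -0.08 over all. Part of every such share comes from regions that were selected through 1 tissue alone, the one where they are higher. Their p-values are not independent of that selection. Libraries without a peak also share tied lowest ranks, which narrows the spread. Among regions with a peak in all 8 libraries, 18 of 58 members (31%) were called, against 41.2% of all. That filter does not remove the selection, since a weak peak in a list need not be among its selected regions. With control chow and WT libraries alone, 25 of 82 were called, against 38% of all. In mixed nuclei, fewer nuclei of a type and a less open region per nucleus cannot be told apart.

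Among the lecticans, which are the chondroitin sulfate proteoglycans of the net, no region rose in dLGN and 4 of 19 fell (21.1%), against 29.3% and 31.1% of all regions. With control chow and WT alone, 3 of these 4 were not called. Acan encodes aggrecan, the core proteoglycan of perineuronal nets. Its only consensus region, chr7:79080246-79081275, lies inside the gene, 27.5 kb from the start, and its −log10 p was 73.4, 73.2, 96.6 and 90.3 in dLGN against 81.9, 50.5, 55.3 and 28.2 in sections. The groups overlapped, with a score difference of -0.09 ± 0.13 (SE, adjusted p = 0.583, limma). Peaks over the Acan start itself were weak in all libraries, at 5.37, 6.74, 14.7 and 21.0 in dLGN against 12.3, 6.56, 4.46 and 8.42 in sections. None of them reached the 50000 strongest regions of its library. Weak deposited regions of the Acan window were nevertheless more numerous in dLGN, with 12, 12, 13 and 10 against 9, 8, 9 and 9 in sections (exact permutation test, 2-sided p = 0.0286, the smallest that 4 against 4 libraries can give, not adjusted). That window also reaches into Hapln3, another link protein gene, and part of Mfge8.

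Bcan encodes brevican, a lectican nearly restricted to the brain. Its start-site region chr3:87999981-88001132 overlapped between the tissues, at 36.2, 40.4, 46.9 and 31.5 in dLGN against 36.3, 23.6, 35.2 and 19.8 in sections, with a score difference of -0.20 ± 0.14 (adjusted p = 0.239, limma). A region 2.2 kb before the start, chr3:88002327-88002788, fell in dLGN, with 8.30, 7.15, 11.7 and 11.0 against 23.7, 15.6, 13.7 and 19.1 in sections. Only section libraries had selected it. All 4 dLGN libraries lay below all 4 section libraries, and the score difference was -0.69 ± 0.15 (adjusted p = 0.00439, limma); with control chow and WT alone the adjusted p was 0.0535. The region past the end of the gene, chr3:87986791-87987439, also fell (-0.66 ± 0.23, adjusted p = 0.0357), but the call was lost in 10 of 15 other settings.

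Ncan encodes neurocan, a lectican most abundant while neural circuits develop. Its counts of selected regions separated the tissues, with 5, 6, 6 and 5 in dLGN against 8, 7, 7 and 8 in sections (exact permutation test, 2-sided p = 0.0286, adjusted p = 0.185 over 18140 genes). Such separation is no rarity: 15.4% of all genes separated between dLGN and sections, and so did 2 of the 9 members, Ncan and Tnr, both with fewer regions in dLGN. With control chow and WT alone, 2 libraries against 2, 6 of the 9 members had fewer and 0 had more in dLGN, where 17.5% of 17816 genes had fewer and 12.3% more (29.7% together). Of the single regions in the Ncan window, chr8:70099354-70099632, 21.4 kb into the gene, fell in dLGN, with 0, 0, 5.15 and 6.19 against 25.8, 12.0, 8.64 and 8.87 in sections (-0.81 ± 0.15, adjusted p = 0.00228, limma). The same region was selected in section library KO 1 alone and had no peak under PLX chow. With control chow and WT alone it was not called (adjusted p = 0.118, limma). The start-site region chr8:70120733-70121074 did not pass (-0.41 ± 0.17, adjusted p = 0.0699). The strongest region of that window, chr8:70138863-70140188, lies outside Ncan and covers the starts of Borcs8, Rfxank and Gm45929. Whether it acts on Ncan was not tested.

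Vcan encodes versican, a lectican made by many tissues, in the brain largely by glial precursors. Its start-site region chr13:89742108-89742651 was at 32.8, 28.9, 47.6 and 27.6 in dLGN against 26.6, 16.0, 19.5 and 11.7 in sections, with every dLGN value above every section value. The scores overlapped, and their difference was 0.12 ± 0.15 (adjusted p = 0.519, limma). The scale of the lists differed too: the median −log10 p of all selected regions was 56.7 to 74.4 in dLGN libraries against 27.8 to 42.9 in section libraries. Near the far end of the gene, 85.1 kb from the start, chr13:89657113-89657637 had no peak in any dLGN library, against 7.82, 15.3, 18.6 and 14.2 in sections. It fell by 1.17 ± 0.15 on the score scale (adjusted p = 0.000382, limma) and was called in all 13 other settings that held it. Only section libraries had selected it.

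The link proteins, which clamp lecticans to hyaluronan, had 18 regions in their windows, neighbouring genes included. Of these 2 rose in dLGN (11.1%) and 4 fell (22.2%), against 29.3% and 31.1% of all regions. The falls include chr3:88002327-88002788 and chr8:70099354-70099632, which the Bcan and Ncan windows share and which were already counted among the lecticans. Hapln2 is the link protein of nodes of Ranvier, the gaps between myelin segments, and is made mainly by oligodendrocytes. Its start-site region chr3:88027396-88027818, which covers the promoter printed above, was at 58.8, 43.4, 70.2 and 29.5 in dLGN against 18.9, 15.0, 14.4 and 8.25 in sections. Only dLGN libraries had selected it, so it entered the comparison through the tissue where it is higher. Every dLGN library was above every section library, and the score rose by 0.68 ± 0.16 (adjusted p = 0.00781, limma); with control chow and WT alone the difference was 0.63 and the adjusted p 0.123. Markers of oligodendrocytes were read beside it: their summed selected regions were 27, 42, 36 and 30 in dLGN against 36, 25, 31 and 31 in sections. Of their 50 consensus regions 11 rose in dLGN (22%) and 7 fell (14%), both below the 29.3% and 31.1% of all regions. All 8 genes of that list had selected regions in both tissues. Their part in the Hapln2 result was not tested. A further region inside Hapln2, chr3:88022434-88023706, was the strongest of the gene and did not pass (0.05 ± 0.13, adjusted p = 0.763). In the same window chr3:88042609-88043612, which lies in Gpatch4, fell (-0.58 ± 0.11, adjusted p = 0.00291).

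Hapln1 stabilises the aggrecan-hyaluronan bond and is needed for compact nets. No library had a peak at its annotated start. A strong region 1.15 kb before that start, chr13:89539029-89539937, which covers the start of Gm34699, was at 279, 209, 212 and 282 in dLGN against 103, 96.4, 90.8 and 57.9 in sections. Its score difference of 0.32 ± 0.13 did not pass (adjusted p = 0.0576, limma). Just inside the gene, chr13:89543084-89543412 fell in dLGN, with 26.0, 35.3, 71.2 and 50.4 against 45.5, 44.9, 28.8 and 38.5 in sections (-0.43 ± 0.14, adjusted p = 0.03). Those values overlap, and the call was lost in 7 of 15 other settings.

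Hapln4 encodes a link protein that pairs with brevican, known in mouse from nets around the synapses of inhibitory axons. Its strongest region, chr8:70087715-70088473, inside the gene, was at 24.5, 51.6, 38.5 and 39.5 in dLGN against 57.1, 32.5, 15.6 and 20.6 in sections and did not pass (-0.23 ± 0.20, adjusted p = 0.335, limma). The region of its window that rose, chr8:70069092-70069656, lies in the neighbour Sugp1, with 36.0, 30.8, 28.4 and 20.4 in dLGN against 4.74, 0, 4.96 and 2.48 in sections (1.15 ± 0.12, adjusted p = 0.000139, limma). Only PLX chow libraries had selected it. No region inside Hapln4 itself was called.

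**Figure D2:**
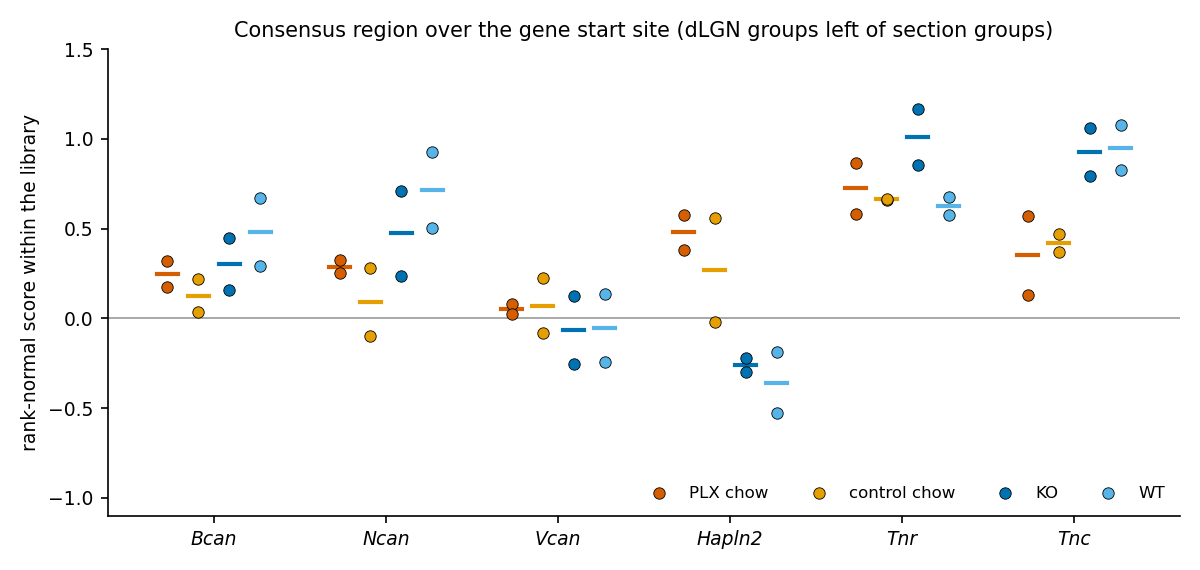
Rank-normal score (y axis) of the consensus region over the start site of 6 genes, 2 libraries per group (points) with their mean (bar). Hapln2 is higher in the 4 dLGN libraries than in the 4 section libraries, Tnc is lower, and the other 4 genes overlap.

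The tenascins, large glycoproteins that cross-link the matrix, had 51 of the 82 regions, of which 14 rose and 17 fell in dLGN. Together that is 60.8%, close to the 60.4% of all regions. Tnr encodes tenascin-R, which binds the lectin domains of lecticans and is made by oligodendrocytes and some neurons. Of its 43 regions 10 rose and 15 fell in dLGN, all overlapping the gene, while the start-site region chr1:159523451-159524632 was not called. That start was at 84.8, 55.6, 80.7 and 67.0 in dLGN against 88.6, 49.1, 35.5 and 26.97 in sections (-0.12 ± 0.13, adjusted p = 0.433, limma). The largest rise was at chr1:159634259-159634872, 111 kb into the gene, with 208, 127, 146 and 181 in dLGN against 6.56, 0, 6.19 and 0 in sections. Its rank was between 5563 and 11990 of 90690 in dLGN libraries, against 73804.5 to 85202.5 in sections, and the score rose by 2.56 ± 0.20 (adjusted p = 3.94e-05, limma). Only dLGN libraries had selected this region, so it entered the comparison through the tissue where it is high. A pair of regions 244 kb from the start also rose. Of these, chr1:159768006-159768520 was at 51.8, 36.0, 53.6 and 44.4 in dLGN against 4.32, 0, 0 and 0 in sections (1.83 ± 0.13, adjusted p = 2.79e-05). At the end of the gene, and mostly past it, chr1:159931716-159932847 rose by 1.08 ± 0.12 (adjusted p = 0.00015, limma).

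The opposite pattern stood in the same gene. The region chr1:159716705-159717766, 193 kb from the start, was at 0, 0, 0 and 5.21 in dLGN against 75.1, 77.9, 55.4 and 59.8 in sections and was the strongest region of the gene in KO 2 and WT 2. Its score fell by 2.44 ± 0.15 (adjusted p = 2.3e-05, limma). The region chr1:159739429-159739914 was at 0, 0, 0 and 2.04 in dLGN against 47.0, 43.3, 27.04 and 23.1 in sections (-1.93 ± 0.13, adjusted p = 2.78e-05). A further region, chr1:159664933-159665334, had no peak in dLGN, against 42.0, 26.3, 7.24 and 6.72 in sections (-1.31 ± 0.12, adjusted p = 7.34e-05). These 6 Tnr regions were called in every other setting that held them, control chow against WT included. Each was selected in libraries of 1 tissue alone, the one where it is higher, and those settings reuse the same lists. Of the 6 only chr1:159931716-159932847 had a peak in all 8 libraries, so the setting that requires such peaks left out the rest. The 25 called regions are 58.1% of those in the Tnr window, near the background of 60.4%. Its selected regions were also fewer in dLGN, at 19, 17, 15 and 14 against 21, 20, 20 and 20 in sections (exact permutation test, 2-sided p = 0.0286, adjusted p = 0.185), while its deposited regions overlapped, at 79, 78, 99 and 87 against 100, 93, 92 and 82.

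**Figure D3:**
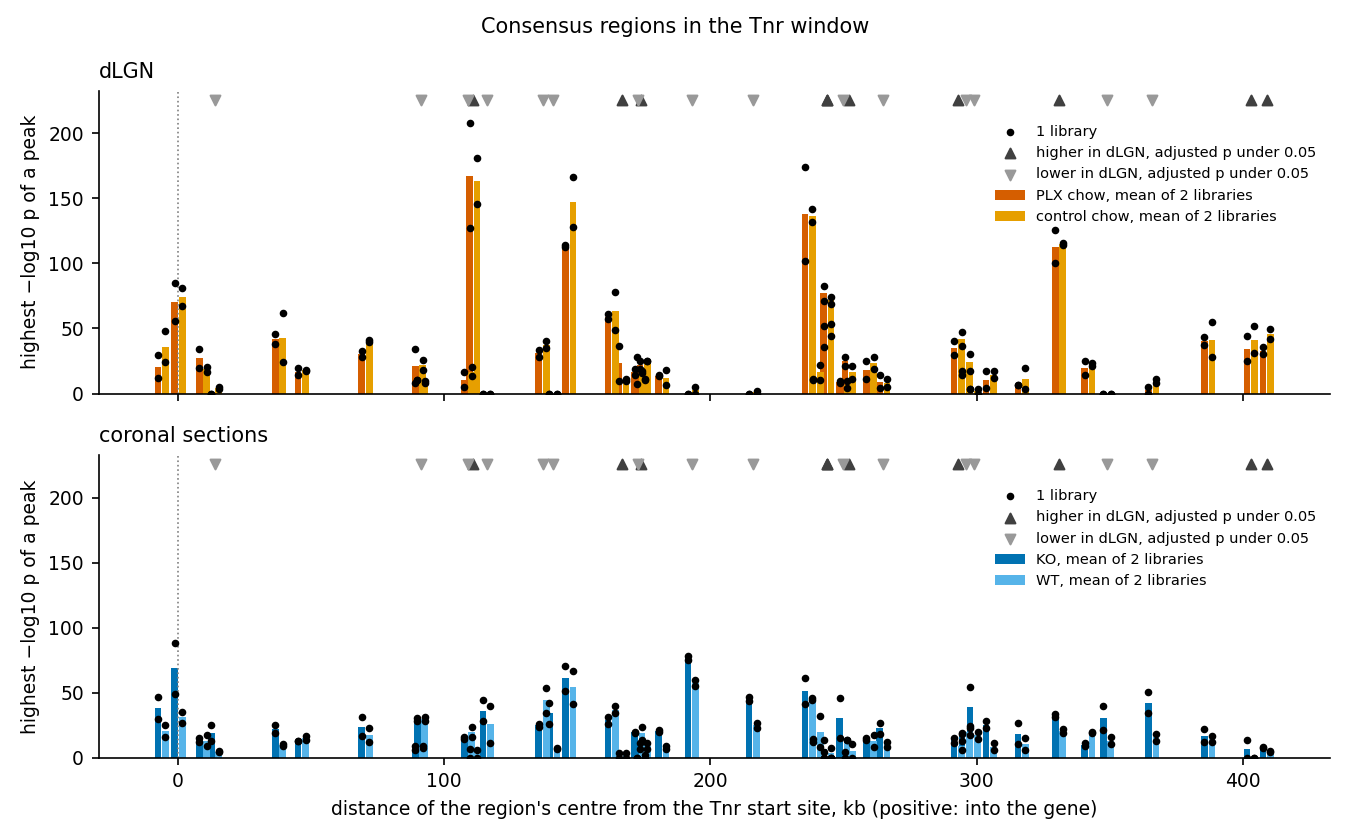
Highest −log10 p (y axis) of each Tnr consensus region by the distance of its centre from the start site (x axis, kb), dLGN above and coronal sections below; bars are means of 2 libraries, dots single libraries, and the bars of the groups are shifted sideways to stand beside each other. Triangles mark the 10 regions that rose and the 15 that fell in dLGN; the region at 111 kb stands out in dLGN and that at 193 kb in sections.

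Tnc encodes tenascin-C, a tenascin of developing brain and of reactive astrocytes. It was the only member with more rises than falls, 4 against 2 of 8 regions. The region chr4:64002006-64003010, 44.5 kb into the gene, was at 186, 134, 222 and 169 in dLGN against 31.0, 31.8, 20.3 and 16.5 in sections, with no overlap between the tissues. Its score rose by 1.11 ± 0.12 (adjusted p = 0.000128, limma) and was called in all 15 other settings. The region chr4:63977276-63977981, 69.4 kb from the start, was at 52.5, 40.3, 38.8 and 38.4 in dLGN against 10.3, 7.11, 3.06 and 4.80 in sections (1.17 ± 0.13, adjusted p = 0.000187). The region at 12.1 kb, chr4:64034702-64035098, was at 24.9, 21.9, 40.0 and 25.7 in dLGN against 0, 9.47, 0 and 0 in sections (1.28 ± 0.23, adjusted p = 0.00193, limma). The regions at 69.4 and 12.1 kb were selected in dLGN alone, whereas that at 44.5 kb was selected in all 8 libraries.

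The Tnc start site went the other way from these inner regions. The region chr4:64046562-64047654, which covers the promoter printed above, was at 58.5, 32.5, 55.9 and 52.5 in dLGN against 53.8, 63.3, 43.0 and 50.4 in sections. Those values overlap, but in ranks it fell in dLGN, by 0.56 ± 0.15 on the score scale (adjusted p = 0.0124, limma), and with control chow and WT alone the adjusted p was 0.0632. The region chr4:63990050-63990642 had no peak in dLGN, against 15.8, 34.7, 6.04 and 7.35 in sections (-1.12 ± 0.20, adjusted p = 0.00211, limma). Only section library KO 2 had selected it. Counting all deposited regions of the window, Tnc had 25, 27, 32 and 29 in dLGN against 16, 21, 18 and 19 in sections (exact permutation test, 2-sided p = 0.0286, not adjusted). By that count 15.9% of 19743 genes separated between the tissues, 6.39% with more and 9.5% with fewer in dLGN, and among the members Acan and Tnc did, both with more. Astrocyte markers were read beside Tnc: 9 of their 53 consensus regions rose in dLGN (17%) and 19 fell (35.8%), against 29.3% and 31.1% of all regions. Their summed selected regions were 29, 32, 31 and 33 in dLGN against 31, 36, 38 and 35 in sections.

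**Figure D4:**
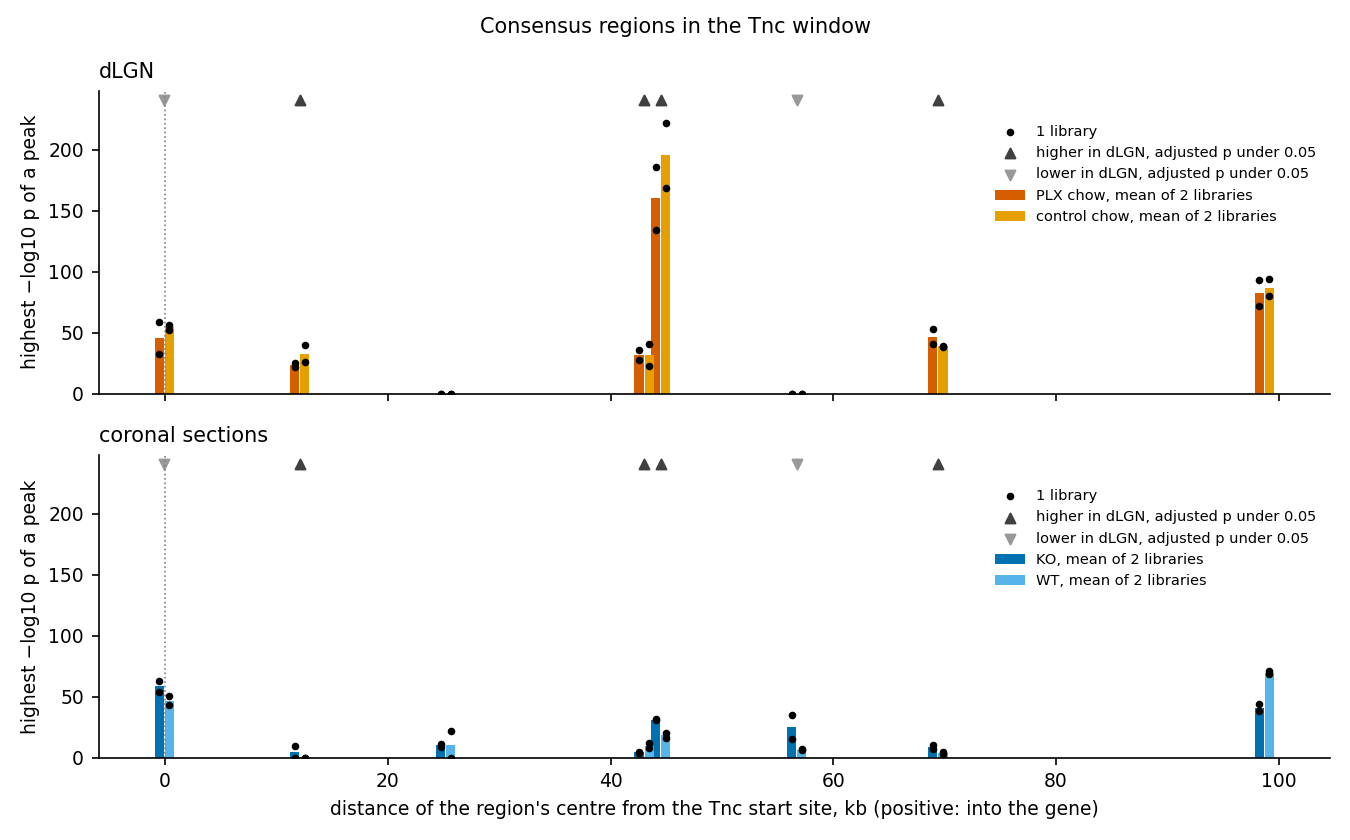
Highest −log10 p (y axis) of each Tnc consensus region by distance of its centre from the start site (x axis, kb), dLGN above and coronal sections below, drawn as for Tnr. The region at 44.5 kb reaches 134 to 222 in dLGN and 16.5 to 31.8 in sections.

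Markers of inhibitory neurons, the cells that most nets surround, were read for the same comparison. Of their 41 consensus regions 15 rose in dLGN (36.6%) and 5 fell (12.2%), against 29.3% and 31.1% of all regions. The summed selected regions were 21, 22, 27 and 25 in dLGN against 16, 15, 18 and 19 in sections. Erbb4 alone gave 13, 13, 14 and 12 of them in dLGN against 3, 6, 7 and 10 in sections, and Lhx6 had none in any library. Gad1 went the other way, with 1, 1, 1 and 1 in dLGN against 2, 2, 2 and 3 in sections. Of the 8 genes only Erbb4 had more and only Gad1 fewer without overlap between the tissues. Of 37 microglial marker regions 5 rose (13.5%) and 14 fell (37.8%) in dLGN. The part of these cell types in the members' values was not tested.

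No consensus region of the members was selected in all 4 libraries of 1 tissue and without a peak in the other, a pattern that 2.95% of all consensus regions had. Over all deposited regions, weak ones included, 7 of 337 (2.08%) had a peak in every dLGN library and in no section library, and 9 (2.67%) the reverse, against 4.5% and 4.24% of all. Those of dLGN alone lay in Tnr, Tnc and Acan. The strongest was chr1:159535533-159536151, 12.1 kb into Tnr, with 20.0, 23.5, 27.9 and 8.26 in dLGN.

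The second comparison asked whether chromatin at the matrix genes differs without Fn14. The section libraries are those used above. None of the 82 regions was called between KO and WT sections, and 0% of all 90690 regions were. At an unadjusted p under 0.05, 15 of the 82 regions (18.3%) differed, 6 higher and 9 lower in KO, against 15% of all regions (7.67% higher and 7.3% lower), and the median difference was -0.01 for the members and for all regions. The smallest adjusted p among the members was 0.0854, at the Tnr region chr1:159664933-159665334 named above, with 42.0 and 26.3 in KO against 7.24 and 6.72 in WT (score difference 1.14 ± 0.17, unadjusted p = 0.000177, limma). Other Tnr regions went the opposite way: chr1:159865605-159865996 was at 9.02 and 11.4 in KO against 19.8 and 19.1 in WT, and chr1:159660705-159661723 at 26.1 and 24.0 in KO against 53.8 and 34.7 in WT. Neither passed the adjusted test. With log2 values of −log10 p, quantile normalised, in place of ranks, the first of these 3 regions was called (log2 difference 1.97 ± 0.27, adjusted p = 0.0488, limma), as were 0.709% of all regions.

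Counts of selected regions separated KO from WT at Vcan and at Hapln2, with 4 and 3 in KO against 5 and 5 in WT at both genes. That is 2 of 9 members against 15.4% of 18140 genes, and with 2 against 2 libraries the smallest p of an exact permutation test of these counts is 0.333. The start-site region of Hapln2 was at 18.9 and 15.0 in KO against 14.4 and 8.25 in WT (score difference 0.10 ± 0.23), and that of Vcan at 26.6 and 16.0 in KO against 19.5 and 11.7 in WT (-0.01 ± 0.22). Neither difference in score passed the test. Counts of all deposited regions went the other way: 4 members had more in KO and 0 had fewer, against 28.1% and 5.04% of 19743 genes. Bcan had 16 and 18 in KO against 12 and 12 in WT, and Ncan had 16 and 18 in KO against 12 and 14 in WT. Hapln4 and Tnr were the others. Of the 13 deposited regions in the Hapln4 window, 11 also lie in that of Ncan, so Hapln4 and Ncan are not independent here. Of single peaks, 8 of the 337 deposited regions in the windows (2.37%) had a peak in both KO libraries and in neither WT library, and 1 (0.297%) the reverse, against 3.42% and 1.16% of 443327 regions. The 1 present in WT alone was chr13:89696308-89696631 in Vcan, with 9.05 and 2.83. No member region was selected in both libraries of 1 genotype and without a peak in the other, a pattern that 0.0176% of consensus regions had. The KO lists held more peaks (299822 and 299816, near the limit of 300000, against 256323 and 261201 in WT). Selected regions summed over 14 microglial genes were 29 and 23 in KO against 20 and 19 in WT. These sums count a region once per gene, and the neighbours C1qa, C1qb and C1qc share regions. C1qa and C1qc each gave 3 and 1 in KO, C1qb gave 2 and 1, and all of them 0 in WT. The part of list length and of these markers in the members' counts was not tested.

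The third comparison asked whether these genes differ in dLGN under PLX chow. None of the 82 regions was called between PLX chow and control chow, and again 0% of all regions were. At an unadjusted p under 0.05 there were 2 of 82 regions (2.44%), against 2.15% of all. Of these, chr13:89543084-89543412 in Hapln1 was at 26.0 and 35.3 under PLX chow against 71.2 and 50.4 under control chow (-0.47 ± 0.20, unadjusted p = 0.0495, adjusted p = 1, limma), and the Sugp1 region in the Hapln4 window was at 36.0 and 30.8 against 28.4 and 20.4 (0.40 ± 0.17, unadjusted p = 0.0481). The median difference was 0.04 over the members and 0.02 over all regions.

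Tnr was the only member whose counts of selected regions separated the diets, with 19 and 17 under PLX chow against 15 and 14 under control chow. Over all genes 6.62% separated, so 1 of 9 is close to the background. The direction turned with the depth of the list: over all deposited regions Tnr had 79 and 78 under PLX chow against 99 and 87 under control chow, where 14.8% of 19743 genes had fewer under PLX chow and 4.91% more. By that count 4 of the 9 members separated, against 19.7% of genes: Bcan, Tnr and Tnc had fewer under PLX chow, and Hapln4 had more. The PLX chow lists were the shorter ones (248989 and 264136 peaks, against 285771 and 267377 under control chow), and the part of list length was not tested. In peaks present in both libraries of a diet and absent from the other, 3 of the 337 deposited regions (0.89%) were seen under PLX chow alone and 10 (2.97%) under control chow alone, against 1.03% and 1.89% of all. The strongest of those 10 was chr13:89548284-89548639, 7.83 kb into Hapln1, with no peak under PLX chow and 10.5 and 17.3 under control chow; the section libraries had 7.24, 7.11, 13.9 and 2.83 there. No member region was selected in both libraries of 1 diet and without a peak in the other diet, as were 0.0011% of consensus regions. No start-site region of the members reached an unadjusted p under 0.05 between the diets. That of Tnr was at 84.8 and 55.6 under PLX chow against 80.7 and 67.0 under control chow, and that of Bcan at 36.2 and 40.4 against 46.9 and 31.5.

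**Figure D5:**
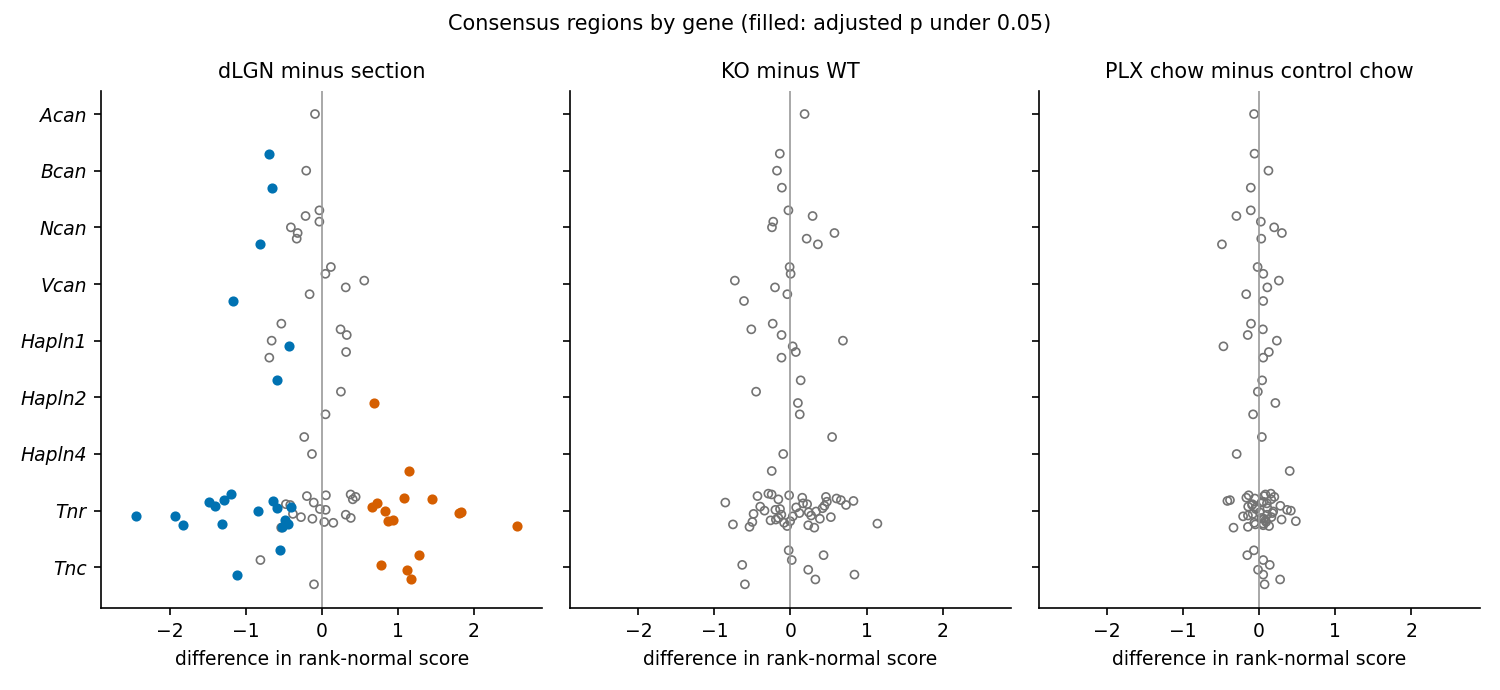
Difference in rank-normal score (x axis) of the 82 consensus regions, each drawn once beside a gene whose window holds it (y axis), for dLGN minus section, KO minus WT, and PLX chow minus control chow. Filled points passed an adjusted p under 0.05; all 39 of them are in the tissue comparison, and 25 belong to Tnr.

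The genes that build, sulfate, bind and digest this matrix were read in the same way, as a list of 58 genes with 393 consensus regions. Between dLGN and sections 89 regions (22.6%) rose and 133 (33.8%) fell, against 29.3% and 31.1% of all regions, and none was called between genotypes or diets. By counts of selected regions, 1 of the 58 genes had more and 7 had fewer in dLGN, where 6.54% and 8.9% of all genes did. In KO sections 9 had more and 7 fewer (9.13% and 6.31% of all genes), and under PLX chow 4 had more and 1 fewer (3.13% and 3.5%). Among the genes of chondroitin sulfate synthesis 28 of 126 regions rose in dLGN (22.2%) and 45 fell (35.7%). The falls include a region in the window of Xylt1, whose product starts the sugar chain, outside the gene at chr7:117671986-117672683. It was at 0, 0, 4.26 and 0 in dLGN against 55.7, 64.3, 19.1 and 18.6 in sections (-1.90 ± 0.14, adjusted p = 3.32e-05, limma). A region in Chsy3, which lengthens the chain, also fell (-1.52 ± 0.11). The Xylt1 window held 6 rises and 7 falls, and that of Chsy3 held 6 of each. Other proteoglycans and receptors gave 11 rises (14.9%) and 27 falls (36.5%) of 74 regions. Among the falls was a region outside Ptprs, a receptor gene for chondroitin sulfate, in its window (-1.42 ± 0.12 at chr17:56493869-56494861). In the window of Tnn, a further tenascin gene, a region rose at chr1:160165318-160165822. It was at 123, 75.9, 81.0 and 74.8 in dLGN and had no peak in any section library (2.47 ± 0.13, adjusted p = 2.02e-05, limma).

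Hyaluronan genes had 9 rises and 9 falls of 32 regions (28.1% each), against 29.3% and 31.1% of all regions. The falls included a region in the window of Cemip2 but outside the gene, at chr19:21764758-21765174 (-2.34 ± 0.14). Another was inside Cemip, at chr7:84044303-84045128 (-1.70 ± 0.14). Neither had a peak in dLGN, and both genes are linked to hyaluronan breakdown. Their windows held rises too, with 5 rises and 2 falls for Cemip2 and 2 of each for Cemip. Among proteases 14 of 71 regions rose (19.7%) and 21 fell (29.6%). A region in the metalloprotease gene Adamts9 was up (1.77 ± 0.13 at chr6:92907938-92908369) and a region in Mmp16 down (-1.31 ± 0.13). The Adamts9 window held 3 rises and 2 falls, and that of Mmp16 held 5 of each. Among protease inhibitors 5 of 19 rose (26.3%) and 4 fell (21.1%). A region in the window of Timp3, whose product binds matrix and inhibits metalloproteases, rose by 1.71 ± 0.12 at chr10:86291875-86292202, inside Syn3, and Timp3 also had more selected regions in dLGN, at 8, 8, 8 and 7 against 4, 4, 5 and 6 in sections. A Timp2 region fell by 0.72 ± 0.20. Of the genes listed as net regulators 22 of 69 regions rose (31.9%) and 27 fell (39.1%). Sema3a, a guidance protein that collects in nets, had a region with no peak in dLGN, against 35.2, 40.5, 28.0 and 19.1 in sections (-1.92 ± 0.12 at chr5:13383928-13385102), and Kcnab1, a potassium channel subunit, one with none against 36.2, 33.9, 43.6 and 43.4 (-2.15 ± 0.11 at chr3:65037402-65038153). The Sema3a window held 1 rise and 8 falls, but that of Kcnab1 18 rises and 12 falls. Regions without a peak in 1 tissue were selected through the other alone, so the limit stated for such regions applies.

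For each gene the protein-coding gene with the most similar window was also found, by Pearson's r of the mean score over the 8 libraries, on another chromosome or at least 1 Mb away. These were Wnt3a for Acan (r = 0.961), Efr3b for Bcan (0.988), Llgl2 for Ncan (0.998), Dthd1 for Vcan (0.963), Gca for Hapln1 (0.963), Peak1 for Hapln2 (0.963), Soat1 for Hapln4 (0.929), Babam2 for Tnr (0.982) and Recql for Tnc (0.969). Each r is the highest over all genes compared, rests on 8 points from 2 tissues, and describes likeness in these libraries alone.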

How the data were processed

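The members, gene lists and comparisons were chosen with earlier results of these data known. Peak lists of 8 ATAC-seq libraries on mm10 were used. Per the deposited lists, the authors called peaks per library at a p threshold of 0.01 with up to 300000 peaks, and give per peak a fold enrichment (a ratio over background) and the −log10 of its p-value; both are the authors' values and served only to describe or rank peaks within a list. The submitters' processing notes name deepTools 3.5.0; which aligner and caller were run is not given in the sources used here. No read counts were used: depth is unknown and counting error could not be computed.

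Within each library, peaks that overlapped were joined and the strongest 50000 of the resulting regions, by −log10 p, were kept as selected regions. Merging the selected regions of all libraries gave the consensus regions. Each took the highest −log10 p of a deposited peak overlapping it by 1 bp or more, was ranked within its library and turned into a normal score. Scores were fitted with limma 3.58.1 (R 4.3.3) on 4 group means over all 8 libraries, with Benjamini-Hochberg adjustment over 90690 regions and calls at an adjusted p under 0.05. The fit was tested on simulated data. Counts of selected regions per window were called where libraries of the groups did not overlap, and tested between tissues by an exact permutation over 70 splits. Genes and promoters came from RefSeq, GRCm38.p6; the gene table gives no exons, so exonic, intronic and untranslated positions were not annotated. All 9 members are named. Regions named are those over the start site or strongest, and up to 3 called per member and direction; for KO against WT and for the diets, regions with small unadjusted p or present in 1 group were chosen after their values were seen. Of the other matrix genes, the 2 with the smallest p per subgroup are named. Alternatives changed the number of selected regions, the window, the ranking, the overlap, the filter and the libraries.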

Additional observations from a re-analysis of the deposited data

Results flagged for a closer look

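A sample was looked at again where, within the 4 libraries of a tissue, its count of selected regions stood apart from the other 3 by Dixon's criterion. Among 15 such groups 4 were marked. In each of them the other 3 libraries had equal counts, and Dixon's ratio then marks the remaining library whatever its distance. The usual rate of about 1 in 20 by chance does not apply to such ties. Bcan had 2 selected regions in KO 2, against 3 in the other section libraries. Vcan had 5 in PLX chow 1, against 4 in the other dLGN libraries. Hapln4 had 2 in PLX chow 2, against 1 in the other dLGN libraries. Tnr had 21 in KO 1, against 20 in the other section libraries. Each differs from the rest by 1 region, the smallest step a count can take.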

How the results depend on the processing

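Calls between dLGN and sections kept their direction for all 19 named regions in the settings that held them, and those lost are given beside their values. The settings reuse the same lists, and each selects regions through the libraries where they are strong, so their agreement is no independent check. The number of member regions called, 39 of 82, was 20 of 36 with 25000 selected regions, 61 of 163 with 100000, 18 with a peak in all 8 libraries, 25 for control chow against WT, and 34 to 44 when each library was left out. Between KO and WT the count of 0 became 1 with log2 values in place of ranks; it stayed 0 between diets.

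Separate counts depended on the lists. For KO against WT 2 members, both with fewer regions in KO, became 1 with the gene body alone, 1 with 25000 and 1 with 100000 selected regions, 4 with windows of 50 kb and 4, all with more in KO, over all deposited regions (3 with more at a q-value under 0.05), and 2 to 4 when each library was left out. For the diets 1, with more under PLX chow, became 2 with 50 kb, 0 with 25000, 1 with fewer under PLX chow with 100000, 2 ranked by fold enrichment (1 each way), 4 over all deposited regions (1 with more, 3 with fewer), 1 with fewer at a q-value under 0.05 and 2 to 3 with a library left out. For the tissues 2, both with fewer in dLGN, became 0 with 25000, 0 ranked by fold enrichment, 2 with more over all deposited regions, 2 with more at a q-value under 0.05, 2 with 50 kb (1 each way), 3 with the gene body alone (1 with more) and 6, all with fewer, for control chow against WT (17.5% of genes had fewer there). Leaving out a library leaves 1 in its group, assumed to vary like the others.

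Regions in 1 group only, 0 in each comparison, became for KO and WT 1 with 100000 selected regions, 7 where absence meant not selected and 9 over all deposited regions. For the diets they became 1 where absence meant not selected and 13 over all deposited regions. For the tissues they became 1 with 50 kb, 4 with 100000, 11 where absence meant not selected, 16 over all deposited regions and 3 for control chow against WT, and 0 to 2 with a library left out (2 without control chow 2). The deposited counts of such regions were added after the data were seen.

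Nothing in the labels says that replicate numbers pair libraries, and deviations of same-numbered libraries correlated by 0.24 (KO, WT) and -0.03 (diets) over regions. With the replicate number as a block, 0, 0 and 41 member regions were called between genotypes, diets and tissues.

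With 2 libraries a group and unknown depth, a missing call does not show that groups are alike, and an absence means only that no peak was listed.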
